A study of Mus musculus with 3 samples.

Results

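Lyve1, Stab1, Stab2 and Mrc1 encode 4 cell surface receptors of lymphatic endothelium, sinusoidal endothelium and tissue macrophages. They were taken by name, and all 4 of the 32285 genes in the count matrices that carry these names were followed through every cell class of the study. Single cells of the mouse small intestine were profiled by droplet 3′ RNA sequencing in 3 libraries that form 1 group, with no treatment and no control group. Each library pooled the intestines, without the duodenum, of 4 wild-type C57Bl/6 females of 9 to 10 weeks. The epithelium was removed with EDTA and DTT, the tissue was digested for 60 min at 37 °C, and live cells without CD45 that carried CD31 and podoplanin were sorted. No label tells if animals were shared between libraries, so p-values reach no further than the spread between these 3 libraries, which may be technical.

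LYVE1 is a link-domain receptor for hyaluronan, a long sugar polymer of the extracellular matrix, and serves leukocytes that dock to and enter lymphatic capillaries. Stabilin-1 and stabilin-2, the products of Stab1 and Stab2, are large scavenger receptors that take up altered lipoproteins, matrix fragments and, in the case of stabilin-2, hyaluronan and other glycosaminoglycans from the blood in liver sinusoids. MRC1, the mannose receptor CD206, is a C-type lectin that internalises mannose-rich glycoproteins and collagen fragments. LYVE1 is the standard marker of lymphatic capillaries, MRC1 that of many resident macrophages, and in mouse lymph node lymphatics all of these receptors have been described.

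In the GRCm38 build with GENCODE M21 annotation, Lyve1 (ENSMUSG00000030787) lies at chr7:110850607-110863239 on the minus strand, with 6 exons in its longest transcript. Stab1 (ENSMUSG00000042286) lies at chr14:31139013-31168641 on the minus strand and Stab2 (ENSMUSG00000035459) at chr10:86841198-87008025 on the minus strand, each with 69 exons. Mrc1 (ENSMUSG00000026712) lies at chr2:14229392-14332057 on the plus strand, with 30 exons. Stab1 overlaps the end of Nt5dc2 on the opposite strand, Stab2 overlaps 5 annotated opposite-strand genes, and the microRNA gene Mir511 lies inside Mrc1. How the counting treated strand is not given in the labels, and whether reads of such neighbours entered the counts was not tested.

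Promoter windows of 300 bases (250 before and 50 after the start) were held for 3 of the 4 genes. They are shown because Mrc1 went with each of Stab1 and Stab2 among lymphatic cells (below). They come from RefSeq on GRCm38.p6 and read 5′ to 3′ along the gene's strand. Capitals mark the matches to the motifs searched on both strands.
Stab1 promoter, chr14:31168592-31168891, minus strand: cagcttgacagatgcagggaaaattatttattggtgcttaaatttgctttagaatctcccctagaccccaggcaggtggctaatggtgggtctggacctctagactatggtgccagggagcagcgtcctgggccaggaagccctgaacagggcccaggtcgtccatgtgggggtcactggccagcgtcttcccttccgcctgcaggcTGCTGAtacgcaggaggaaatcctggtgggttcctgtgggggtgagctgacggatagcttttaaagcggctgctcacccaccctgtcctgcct
Stab2 promoter, chr10:87007893-87008192, minus strand: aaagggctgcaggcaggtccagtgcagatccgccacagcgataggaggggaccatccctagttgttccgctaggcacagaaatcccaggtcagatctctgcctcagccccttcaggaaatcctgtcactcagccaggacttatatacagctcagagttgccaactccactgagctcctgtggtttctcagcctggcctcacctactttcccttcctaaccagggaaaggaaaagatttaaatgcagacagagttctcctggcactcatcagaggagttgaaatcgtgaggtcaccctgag
Mrc1 promoter, chr2:14229164-14229463, plus strand: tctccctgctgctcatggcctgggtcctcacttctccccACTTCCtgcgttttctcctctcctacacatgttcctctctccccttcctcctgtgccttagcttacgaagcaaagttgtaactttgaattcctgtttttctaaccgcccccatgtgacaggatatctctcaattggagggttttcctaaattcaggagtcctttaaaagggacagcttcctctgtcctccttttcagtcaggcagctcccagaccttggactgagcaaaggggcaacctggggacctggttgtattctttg
The letters searched were GGAAGT, the core bound by ETS factors such as PU.1 and ERG, AGATAA, bound by GATA factors, TGCTGA, the core of the site of MAF factors, and the TATA box TATAAA. No search letters overlapped another motif in these windows. The Stab1 window held 1 TGCTGA, a string found in 19.5% of 32851 mouse promoter windows of this length. The Mrc1 window held 1 ACTTCC, the reverse complement of GGAAGT, which 23.8% of windows hold on either strand. The Stab2 window held none of them, where AGATAA stood in 11.2% and TATAAA in 13.6% of all windows. G and C made up 57.3% of the Stab1, 53.0% of the Stab2 and 50.3% of the Mrc1 window. These are matches of letters and not sites of binding.

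The 3 libraries gave 22534 cells after filtering, with median depths of 6698 to 7979 UMIs, the unique molecules counted per cell. Cell classes were set by UMI rules: lymphatic endothelial cells (LEC) had at least 1 Prox1 and 1 Flt4 UMI, blood endothelial cells (BEC) at least 3 Flt1 and no Prox1 UMI, and macrophages at least 10 UMIs of C1qa, C1qb and C1qc together. There were 18890 LEC, 138 BEC and 209 macrophages, beside fibroblasts (290), mural or smooth muscle cells (227), epithelial cells (606), T or innate lymphoid cells (122) and smaller classes. The marker list of each of the 9 classes was highest, on average over libraries, in its own class. The BEC of library 3 stood apart, with fibroblast markers summing to 4805 CPM, against 10.3 CPM in library 1 and 57.3 CPM in library 2, and with no UMI of the venule genes Madcam1, Ackr1 or Selp. B and plasma cell markers summed to 375, 1117 and 4662 CPM in macrophages of libraries 1, 2 and 3. The part of either in the results was not tested, and values without library 3 are given with the tests. The sort favours LEC and removes CD45-positive cells, so class sizes describe what passed the gate. Macrophages were 0.299% to 1.52% of cells and carried Ptprc, the CD45 gene, at 634 ± 39 CPM, against 0.941 in LEC. Pairs of libraries shared 13 to 23 cell barcodes. Within a summed class, fewer expressing cells and less RNA per cell cannot be told apart.

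Lyve1 was high in LEC and low in every other class. Its levels in LEC were 4686, 4188 and 3827 CPM (the UMIs of the gene scaled to a fixed total of UMIs per class and library) in libraries 1, 2 and 3, or 4234 ± 431 (SD, n = 3). Macrophages held 73.1, 79.0 and 46.7 CPM (66.3 ± 17.2), and BEC held 41.1, 75.1 and 24.9 CPM (47.0 ± 25.6). The 3 LEC values lay far above those of macrophages and BEC, whose ranges overlapped. Lower in the order came fibroblasts (35.9 ± 21.3 CPM), mural cells (30.5 ± 8.57), T or innate lymphoid cells (27.0 ± 31.5) and epithelial cells (20.3 ± 2.85). From macrophages downward, no class differed from the next by more than the spread between libraries.

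Stab1 was also highest in LEC, but macrophages and BEC held levels that stood above the remaining classes. It had 928, 815 and 734 CPM in LEC (826 ± 97.8), 210, 291 and 205 CPM in macrophages (235 ± 48.3), and 97.6, 96.8 and 44.8 CPM in BEC (79.7 ± 30.3). The 3 ranges did not overlap. Fibroblasts (14.3 ± 5.76 CPM), T or innate lymphoid cells (9.49 ± 9.39), epithelial cells (9.47 ± 1.12) and mural cells (8.19 ± 1.44) followed and did not differ beyond their spread.

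Mrc1 was highest in macrophages, with 749, 853 and 652 CPM (752 ± 101). LEC came next at 297, 272 and 265 CPM (278 ± 16.7). BEC had 5.14, 1.98 and 4.98 CPM, which rest on 3 UMIs in all. The other classes had means of 2.06 to 7.69 CPM, so Mrc1 marked a pair of classes and was near the floor elsewhere. Stab2 was the least detected gene, with 19.9, 17.04 and 12.6 CPM in LEC (16.5 ± 3.68). BEC had 15.4, 1.98 and 0 CPM from 4 UMIs, and macrophages had 0, 4.58 and 3.22 CPM from 6 UMIs. None of the 606 epithelial cells had a Stab2 UMI, which allows a share of up to 0.495% of cells with a UMI.

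**Figure D1:**
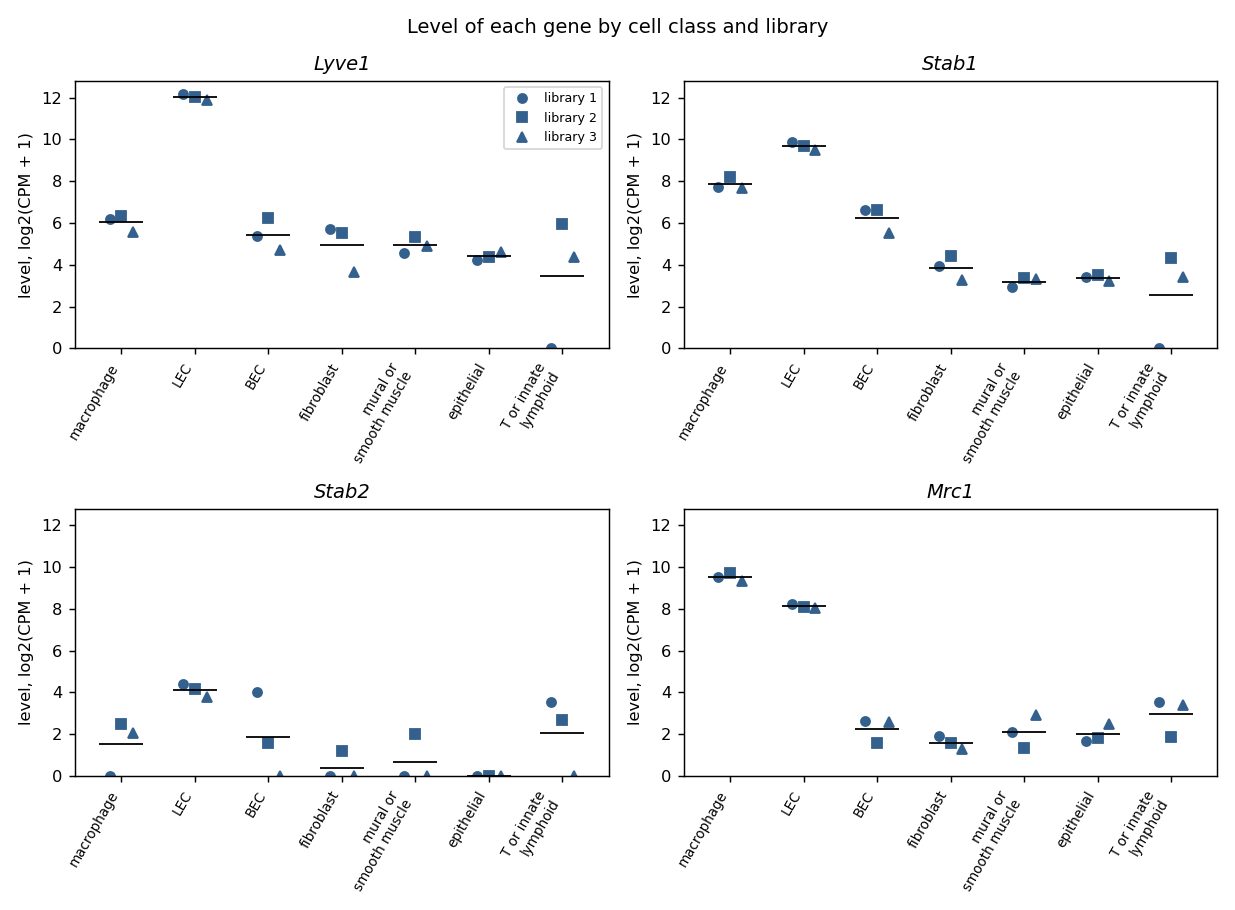
Level of each gene in each cell class as log2(CPM + 1), with 1 point per library and a bar at the mean of the 3 log2 values. Lyve1 and Stab1 are highest in LEC, Mrc1 is highest in macrophages with LEC second, and Stab2 is low in all classes.

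Transcripts of the abundant LEC, as free RNA or in doublets, may add to the low levels, and their part was not tested. Reln and Ccl21a, a matrix glycoprotein and a chemokine gene of lymphatic endothelium, were read beside the members for scale. Barcodes without cells were not read. In macrophages, Reln was at 0.973% and Ccl21a at 1.44% of their LEC level, against 1.57% for Lyve1. In BEC, Reln was at 0.803% and Ccl21a at 1.46% of their LEC level, against 1.35% for Lyve1. Lyve1 in macrophages and BEC was thus within or just above the range of these LEC genes. Stab1, in contrast, stood at 30.8% of its LEC level in macrophages and 10.4% in BEC, and Mrc1 at 277% in macrophages and 1.20% in BEC. Epithelial cells should lack these genes, and there Lyve1 stood at 0.468%, Stab1 at 1.22% and Mrc1 at 1.01% of the LEC level. Their median depth was 25652 UMIs, against 7251 in macrophages and 5242.5 in BEC. An equal amount of free RNA would be a smaller share in deeper cells, so these percentages are not a like scale for the other classes.

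**Figure D2:**
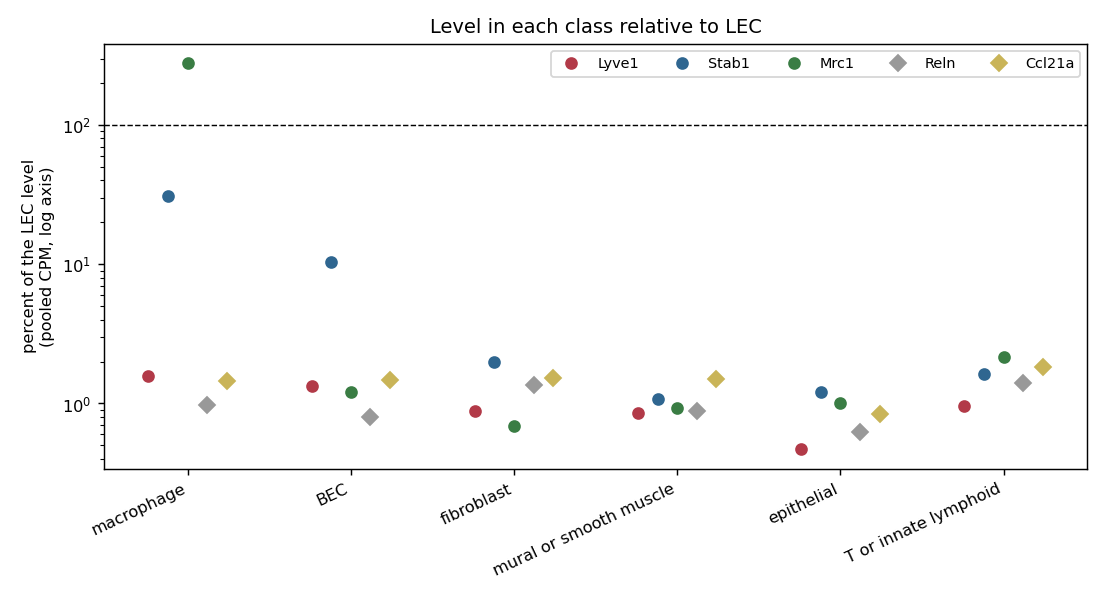
Pooled CPM of each class as a percent of the LEC level, on a log axis, for Lyve1, Stab1, Mrc1 and the LEC genes Reln and Ccl21a. Stab1 in macrophages and BEC, and Mrc1 in macrophages, lie above 10%, and the other points lie between 0.468% and 2.15%.

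Within LEC and within macrophages, shares of cells with a UMI ranked the genes as their levels did. At 3000 UMIs per cell, 99.8% of LEC had a Lyve1 UMI, 88.7% a Stab1 UMI, 49.2% an Mrc1 UMI and 4.16% a Stab2 UMI, against 99.8%, 97.9%, 72.7% and 9.47% of LEC at full depth. In macrophages, 79.8% had an Mrc1, 44.5% a Stab1 and 10.4% a Lyve1 UMI at 3000 UMIs (87.6%, 68.4% and 21.5% at full depth). In BEC, 20.97% had a Stab1 UMI at 3000 UMIs and 35.5% at full depth. Epithelial cells, with a median of 25652 UMIs against 7164 in LEC, gave 4.78% for Stab1 and 4.27% for Lyve1 at 3000 UMIs. At full depth, 441 of 606 epithelial cells had no Lyve1 UMI, against 164 of 209 macrophages and 115 of 138 BEC. The full-depth share of Lyve1 thus did not follow the order of its levels across classes. Cells under 3000 UMIs, which were left out of the thinned shares, were 36 of 209 macrophages, 14 of 138 BEC and 673 of 18890 LEC.

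Differences between classes were tested with edgeR's quasi-likelihood test on UMIs summed per library and class, with the library as a block and Benjamini-Hochberg adjustment over all genes tested. LEC exceeded BEC in Lyve1, Stab1 and Mrc1, so 3 of the 4 genes were called, against 19.9% of the 12769 genes tested (10.5% higher and 9.46% lower in LEC). The log2 fold change of Lyve1 was 6.39 ± 0.22 (approximate SE, adjusted p = 3.09e-11), a ratio of mean levels of 90.04. Stab1 differed by 3.35 ± 0.20 on the log2 scale (adjusted p = 7.38e-09), a ratio of 10.4. For Mrc1 (adjusted p = 2.84e-09) the pooled ratio was 83.3, with a counting interval of 28.5 to 404, because BEC held only 3 UMIs. Stab2 was higher in LEC in 3 of 3 libraries, but its difference of 1.86 ± 0.70 did not pass (adjusted p = 0.0793). It passed without library 1, which held 3 of the 4 BEC UMIs (log2 fold change 3.47). Without library 3, the log2 fold changes between LEC and BEC were 6.13 for Lyve1, 3.13 for Stab1, 6.57 for Mrc1 and 1.56 for Stab2 (edgeR adjusted p = 5.98e-153, 2.23e-41, 1.30e-48 and 0.131), so each call was the same.

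Macrophages differed from LEC in all 4 genes, where 47.3% of the 13150 genes tested were called (17.2% higher and 30.1% lower in macrophages). Mrc1 was 2.71-fold higher in macrophages (log2 fold change 1.46 ± 0.17, edgeR adjusted p = 1.20e-16). Stab1 was lower by 1.74 ± 0.18 on the log2 scale (log2 fold change -1.74, adjusted p = 4.58e-21) and Lyve1 by a log2 fold change of -5.96 ± 0.20 (adjusted p = 2.80e-191). Stab2 had a log2 fold change of -2.002 ± 0.55 (adjusted p = 8.40e-04) from 6 macrophage UMIs, and this call was lost without library 2 (adjusted p = 0.0688). With library 3 left out, Mrc1 had a log2 fold change of 1.505, Stab1 of -1.75, Lyve1 of -5.80 and Stab2 of -2.06 (edgeR adjusted p = 2.49e-07, 4.56e-09, 3.03e-86 and 0.0364).

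Set against BEC, macrophages were higher in Mrc1 and Stab1, 2 of the 3 genes tested, against 46.7% of 5266 genes (21.8% higher and 24.8% lower in macrophages). The Mrc1 ratio was 231 (counting interval 78.8 to 1121, edgeR adjusted p = 1.92e-08). Stab1 was 2.95-fold higher (log2 fold change 1.73 ± 0.29, adjusted p = 2.00e-04). Lyve1 did not pass (0.52 ± 0.33, adjusted p = 0.224), though it did under stricter class rules (1.25, adjusted p = 0.0161), and Stab2, with 6 UMIs in macrophages and 4 in BEC, was not tested. Without library 3, Mrc1 had a log2 fold change of 8.11 (edgeR adjusted p = 1.53e-36), Stab1 of 1.53 (adjusted p = 9.83e-05) and Lyve1 of 0.36 (adjusted p = 0.548). These 3 comparisons share their class sums.

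BEC and macrophages without any Reln, Prox1 or Flt4 UMI were also examined, a choice made after the data were seen. The 161 macrophages left kept 738, 922 and 655 CPM of Mrc1 and 216, 296 and 192 CPM of Stab1. Their pooled Lyve1 was 0.984% of the LEC level, next to 0.959% for Ccl21a. In the 75 BEC left, Stab1 had 99.8, 84.6 and 37.9 CPM from 40 UMIs, Lyve1 had 14 UMIs and Mrc1 had none. These BEC still held 55 UMIs of Ccl21a, at 89.8, 100.3 and 177 CPM. Whether these UMIs came from LEC or from the BEC was not tested. The part of LEC transcripts in the BEC level of Stab1 was not tested either.

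Within macrophages, Mrc1 and Lyve1 were set beside Cd163, a haemoglobin scavenger receptor of resident macrophages. The 86 macrophages with a Cd163 UMI had 864, 1041 and 1040 CPM of Mrc1, against 718, 659 and 435 CPM in the 123 without. They had 173, 133 and 98.6 CPM of Lyve1 (85 UMIs), against 46.3, 23.3 and 17.6 CPM in those without (21 UMIs). For both genes the Cd163-positive side was higher in all 3 libraries, though library 1 held only 3 such cells. A single barcode held 27 of the 85 Lyve1 UMIs, and without it Lyve1 had 173, 75.1 and 98.6 CPM with Cd163 and 46.3, 23.3 and 17.6 CPM without (58 and 21 UMIs). With that barcode left out, Reln had 0, 16.4 and 17.9 CPM in the Cd163-positive and 23.2, 9.31 and 15.1 CPM in the Cd163-negative cells, higher with Cd163 in 2 of 3 libraries. With that barcode included, Lyve1 had r = 0.648 with Reln and 0.464 with Ccl21a across macrophages of library 2, and 0.125 and 0.220 in library 3, against 0.0781 and 0.298 with Cd163. The part of LEC transcripts in the Lyve1 values was not tested. Stab1 differed little, at 216, 300 and 233 against 209, 282 and 188 CPM. A split by Timd4, another gene of resident macrophages, did not show the pattern. The 67 cells with a Timd4 UMI had 599, 1041 and 601 CPM of Mrc1, against 884, 767 and 688 CPM in the 142 without, and 77.3, 83.7 and 31.4 CPM of Lyve1, against 69.3, 76.9 and 57.3 CPM. Both splits were made after the data were seen, have no test, and compare cells of the same libraries.

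Across the 102 macrophages of library 2 and the 88 of library 3, depth-corrected counts of Mrc1 went with those of Cd163 (r = 0.438 and 0.578) and of Maf, a transcription factor of resident macrophages (0.500 and 0.484). F13a1, the coagulation factor XIII A chain (0.441 and 0.427), and Igf1 (0.410 and 0.458) had like values. Itgax, which encodes CD11c (-0.402 and -0.372), and the tetraspanin gene Cd9 (-0.399 and -0.407) ran the other way. These correlations describe cells that share a library, with no test.

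Within BEC, the 49 cells with a Stab1 UMI held 273 UMIs of Madcam1, the addressin of gut venules, against 50 in the 89 cells without. They held 239 UMIs of Ackr1, a chemokine receptor of venules, against 83. Both genes were higher on the Stab1 side in libraries 1 and 2 and had no UMI on either side in library 3. Selp, the P-selectin gene of venules, had 358, 2202 and 0 CPM with Stab1, against 484, 1567 and 0 CPM without, so it was lower on the Stab1 side in library 1 and higher in library 2. These genes were chosen after values were seen, and the split has no test. Plvap, a gene of fenestrated capillaries, was alike at 3672 ± 76.3 and 3618 ± 389 CPM. A single BEC barcode held 24 of the 51 Lyve1 UMIs, so the Lyve1 level of BEC rests in part on 1 cell. The other BEC with Lyve1 had 1 UMI (17 cells) or 2 UMIs (5 cells).

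Other receptors of these families were detected in other classes. Of 19 other scavenger receptor genes, 11 were tested between LEC and BEC, of which 0 were higher and 4 lower in LEC. Their median log2 fold change was -0.31, against 0.18 over all genes, of which 10.5% were higher and 9.46% lower. Scarb1, the high density lipoprotein receptor, had 4.12 ± 0.657 CPM in LEC against 310 ± 71.7 in BEC, and Cd36, a fatty acid and thrombospondin receptor, had 40.0 ± 6.56 against 680 ± 14.6. Between macrophages and LEC, 9 of 14 were higher and 3 lower in macrophages. Their median was 4.29, against -0.39 over all genes, of which 17.2% were higher and 30.1% lower. Cd163 (201 ± 78.0 CPM in macrophages, 0.0859 in LEC) and Msr1, the class A scavenger receptor (127 ± 16.8 CPM against 1.92), were near the floor in LEC, unlike Stab1.

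Of 17 C-type lectin genes, the wider family of Mrc1, 11 were tested between macrophages and LEC, with 7 higher and 2 lower in macrophages. Their median was 7.99, against -0.39 over all genes, of which 17.2% were higher and 30.1% lower. Mrc2, a relative of Mrc1 that encodes the collagen receptor Endo180, had 1 UMI in macrophages and 47 in LEC. In fibroblasts, Mrc2 stood at 127 ± 7.30 CPM. Clec1a was at 120 ± 5.56 CPM in LEC, against 110 ± 23.3 in BEC and 2.37 in macrophages.

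Genes of hyaluronan handling were counted in the same way. Of 22 genes, 14 were tested between LEC and BEC, with 3 higher and 3 lower in LEC. Their median log2 fold change was 0.24, against 0.18 over all genes, of which 10.5% were higher and 9.46% lower. Between macrophages and LEC, 13 were tested, with 1 higher and 6 lower in macrophages. Their median was -2.46, against -0.39 over all genes, of which 17.2% were higher and 30.1% lower. The one higher in macrophages was Cd44, the main hyaluronan receptor of leukocytes, at 365 ± 46.2 CPM against 0.842 in LEC. LEC thus had Lyve1 with almost no Cd44. Macrophages had Cd44, and the part of LEC transcripts in their 66.3 ± 17.2 CPM of Lyve1 was not tested. Layn, the hyaluronan receptor layilin, had 39.8 ± 2.67 CPM in LEC against 6.72 ± 5.82 in BEC (edgeR adjusted p = 1.36e-03), and the hyaluronidase gene Hyal2 had 77.5 ± 2.13 CPM in LEC against 2.83 in macrophages. The synthases Has1 (109 ± 50.5 CPM) and Has2 (37.5 ± 19.7 CPM) were highest in fibroblasts, and had 78 and 11 UMIs in all LEC.

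Because stabilins, Lyve1 and Mrc1 together mark liver sinusoidal endothelium, genes of that endothelium were read in LEC. Of 13 such genes, 7 were tested against BEC, with 3 higher and 1 lower in LEC. Their median was 2.87, against 0.18 over all genes, of which 10.5% were higher and 9.46% lower. Maf had 1194 ± 133 CPM in LEC against 7.59 ± 9.17 in BEC, and Gpr182, an atypical chemokine receptor gene, 193 ± 15.96 against 27.6 ± 11.7 CPM. Oit3, Clec4g and Gata4, which define the liver cells, had 10, 22 and 25 UMIs over all LEC.

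**Figure D3:**
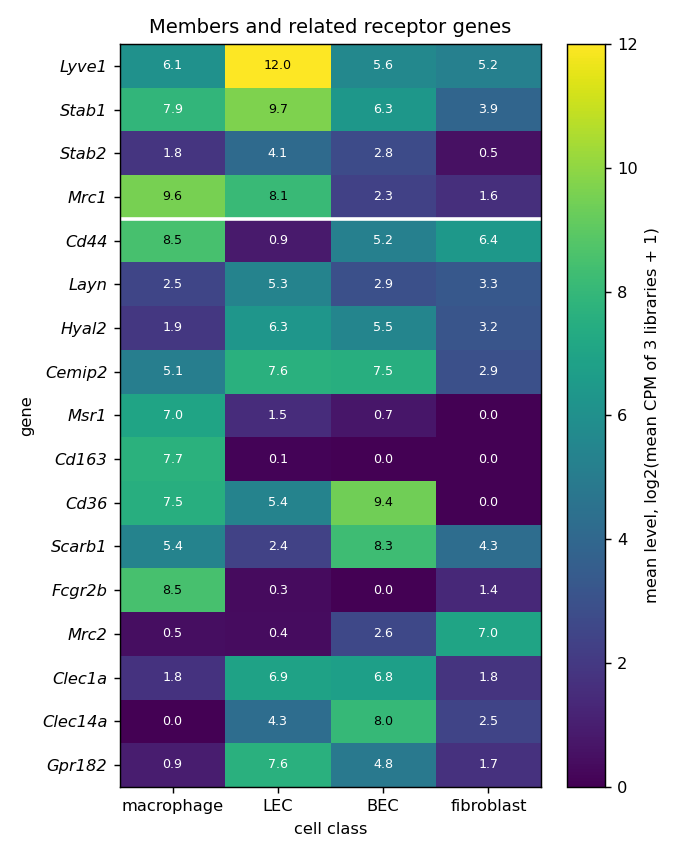
Heat map of log2(mean CPM of 3 libraries + 1) for the 4 genes and 13 related receptor and hyaluronan genes in macrophages, LEC, BEC and fibroblasts. Cd44, Msr1, Cd163 and Fcgr2b are high in macrophages and near 0 in LEC, whereas Stab1 and Mrc1 are high in both.

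Genes with the class pattern most like each member were ranked over 7 classes among 10180 genes, by the correlation of mean log2(CPM + 1). For Lyve1 these were Adgrg3 (r = 0.993), Nrcam (0.987), Ccl21a (0.983), Cyp4b1 (0.982) and Reln (0.978). For Stab1, Dhrs3, a retinal reductase gene, came first (0.993), with 327 CPM in LEC, 169 in macrophages and 92.3 in BEC. For Mrc1 the first were C5ar2, a complement receptor gene (0.978), and Hltf (0.968). For Stab2, the first was Lrrfip1 (0.988). The 7 points share libraries and the LEC class sets much of the range, so these are descriptions.

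LEC were then compared with each other at equal depth, with every cell thinned to 3000 UMIs. Lyve1 had a median of 12 UMIs per thinned cell, with 5% of cells at 4 or fewer and 5% at 23 or more. At full depth 45 of 18890 LEC had no Lyve1 UMI.

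Across LEC (5741, 4882 and 8267 cells), the depth-corrected counts of Stab1 and Mrc1 went together (mean r over the libraries = 0.158), as did those of Stab2 and Mrc1 (0.120). Stab1 and Stab2 had r = 0.0550. Lyve1 had r = 0.00894 with Stab1, -0.0316 with Mrc1 and -0.0608 with Stab2. For scale, the 1% and 99% points of the 3381 genes of at least 50 CPM were -0.217 and 0.157 with Mrc1 and -0.112 and 0.147 with Lyve1. The values of Stab1, Stab2 and Mrc1 with one another were small and had the same sign in every library.

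The genes nearest to each member differed. Lyve1 went with Fgl2, a secreted fibrinogen-like protein (r = 0.385), Cavin2, a caveolar coat gene (0.343), Gucy1a1, a subunit of the nitric oxide receptor (0.307), Ahnak (0.252) and Reln (0.246). Mrc1 went with Nrp2, the VEGF-C co-receptor (0.329), the water channel Aqp1 (0.258), Maf (0.249), Col23a1 (0.229) and Tspan18 (0.222). Aqp1 and Tspan18 were also among the 5 nearest to Stab1 (0.218 and 0.214), and Aqp1 (0.139) and Nrp2 (0.131) were the 2 nearest to Stab2. Lowest with Lyve1 were the MHC class I gene H2-K1 (-0.201), Fabp4 (-0.198) and Plxnd1 (-0.173), and the ferritin gene Fth1 was lowest with Mrc1 (-0.294). Immediate early genes Fos (-0.195) and Junb (-0.182) were lowest with Stab1, and Vim (-0.141) and Cd9 (-0.136) with Stab2.

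**Figure D4:**
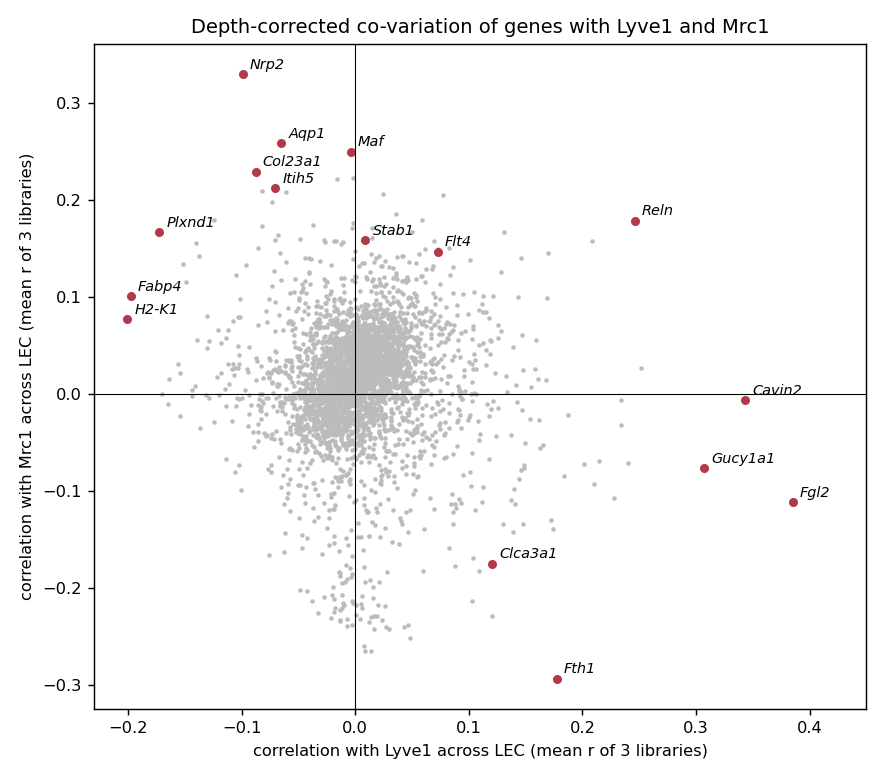
Each point is 1 of the genes of at least 50 CPM in LEC, placed by its mean depth-corrected correlation with Lyve1 (x axis) and Mrc1 (y axis) over the 3 libraries. Fgl2, Cavin2 and Gucy1a1 lie far to the right and not up, whereas Nrp2, Aqp1 and Maf lie up and not to the right.

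The same relations were tested on sums of thinned cells. LEC were split by Lyve1 into a high and a low group of similar size, with the middle left out (6195 against 2444 CPM of Lyve1), a range and not a cell type, with 981 to 1897 cells per library within 1 UMI of the lower limit and 809 to 1583 within 1 UMI of the upper. Of the other 3 genes, Stab2 was called, where 12.1% of 11378 genes were (5.57% higher and 6.49% lower with high Lyve1). Stab2 had 15.6, 12.4 and 10.8 CPM in Lyve1-high LEC, against 27.8, 18.1 and 13.5 CPM in Lyve1-low LEC (log2 fold change -0.57 ± 0.12, edgeR adjusted p = 3.34e-04). It was lower in 3 of 3 libraries, the groups overlapped across libraries, and the call was lost without library 1 (adjusted p = 0.0903), without the library block (0.390) and with DESeq2 (0.266). Stab1 (848 ± 93.6 against 854 ± 110 CPM, adjusted p = 0.987) and Mrc1 (263 ± 1.97 against 277 ± 18.5 CPM, adjusted p = 0.432) did not pass.

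Lyve1-high LEC had more Fgl2 (3195 ± 136 against 2192 ± 49.7 CPM, log2 fold change 0.55 ± 0.04) and Reln (0.33 ± 0.04), and more of the stabilin ligand gene Tgfbi (63.8 ± 13.7 against 30.3 ± 7.05 CPM, 1.06 ± 0.07). They had less Itih5, a hyaluronan-associated inter-alpha-trypsin inhibitor (-0.30 ± 0.05), and less Mmp14, a membrane protease that can shed LYVE1 (-0.26 ± 0.05). Of 5 tested genes of MHC class II and recruited macrophages, 1 rose and 4 fell (median -0.65, against 0.00 over all genes), with the class II chaperone Cd74 at 89.2 ± 50.7 against 208 ± 85.3 CPM. Among genes outside the lists, Top2a, a topoisomerase of dividing cells, had 1.70 ± 0.217 CPM in Lyve1-high against 28.4 ± 4.76 CPM in Lyve1-low LEC, and the kinetochore gene Cenpf had a log2 fold change of -3.50 ± 0.15. Fibroblast collagen markers were also lower, with 4 of 4 called and sums of 2.90 to 15.3 CPM against 17.2 to 128 CPM. Their part in these differences was not tested, and without LEC that had an Mki67 or Top2a UMI the calls of the 3 genes did not change.

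Among LEC with and without a Stab1 UMI, Mrc1 passed and Lyve1 and Stab2 did not, against 2.76% of 11738 genes called (0.554% higher and 2.21% lower with Stab1). Mrc1 had 289, 275 and 271 CPM in Stab1-detected LEC, against 252, 210 and 202 CPM in Stab1-undetected LEC (log2 fold change 0.32 ± 0.05, edgeR adjusted p = 4.16e-05). The groups did not overlap. Lyve1 had 4272 ± 424 against 4132 ± 460 CPM (adjusted p = 0.763), and Stab2 16.1 ± 4.18 against 14.7 ± 6.08 CPM (adjusted p = 0.736). Itih5 (0.47 ± 0.06), Reln (0.20 ± 0.03) and Maf (0.17 ± 0.03) were higher with Stab1 and Cenpf, a mitosis gene, was lower (-2.17 ± 0.15). Defensins of Paneth cells, Defa21 (0.80 ± 0.17) and Defa22 (0.71 ± 0.15), were also higher, while none of the 3 tested epithelial markers was called. Fibroblast markers were lower, with sums of 6.89 to 43.2 CPM against 19.0 to 195 CPM, and their part was not tested.

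Among LEC with a Stab2 UMI (297, 187 and 273 cells), Mrc1 and Lyve1 passed, against 3.53% of 11538 genes called (1.53% higher and 1.99% lower with Stab2). Mrc1 had 412, 381 and 370 CPM in Stab2-detected LEC, against 279, 264 and 258 CPM in Stab2-undetected LEC (log2 fold change 0.52 ± 0.06, edgeR adjusted p = 1.19e-09), with no overlap. Lyve1 had 4287, 3973 and 3574 CPM, against 4726, 4228 and 3860 CPM (-0.13 ± 0.03, adjusted p = 0.0104), lower in 3 of 3 libraries. That call was lost without library 3 (adjusted p = 0.100), without the library block (0.825) and with DESeq2 (0.128). Stab1 had 908 ± 87.6 against 850 ± 105 CPM and did not pass (adjusted p = 0.493). Itih5 (0.69 ± 0.08), Mmp14 (0.68 ± 0.09) and Ptx3, a soluble pentraxin (0.75 ± 0.20), were higher, and Tgfbi (-1.34 ± 0.21), Postn, a matrix protein that stabilins take up (-0.99 ± 0.14), and Fgl2 (-0.47 ± 0.04) were lower.

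Among LEC with an Mrc1 UMI, both stabilin genes passed, against 12.1% of 11742 genes called (5.2% higher and 6.93% lower with Mrc1). Stab2 had 26.9, 18.7 and 16.2 CPM in Mrc1-detected LEC, against 14.0, 11.2 and 8.37 CPM in Mrc1-undetected LEC (log2 fold change 0.86 ± 0.10, edgeR adjusted p = 4.70e-09), and the groups did not overlap. Stab1 had 999, 890 and 805 CPM, against 917, 808 and 698 CPM (0.12 ± 0.03, adjusted p = 1.18e-03). It was higher in 3 of 3 libraries, though the change was small and was lost without library 3 (adjusted p = 0.0613). Lyve1 did not pass (-0.05 ± 0.02, adjusted p = 0.145). By cell, 6.91%, 4.92% and 4.53% of Mrc1-detected LEC had a Stab2 UMI, against 3.78%, 3.11% and 2.37% of Mrc1-undetected LEC. The 4 macrophage markers summed to 0.470 to 0.878 CPM in Mrc1-detected LEC, against 0.125 to 2.21 CPM in Mrc1-undetected LEC. Barcodes that met the macrophage rule had been left out of LEC, so low sums were partly set in advance. The part of macrophage RNA in these values was not tested.

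Mrc1-detected LEC also had more Itih5 (0.65 ± 0.04), Mmp14 (0.50 ± 0.05), Layn (0.28 ± 0.07) and Gpr182 (0.17 ± 0.04). They had less Tgfbi (28.0 ± 7.31 against 60.2 ± 11.3 CPM), Cd36 (-0.36 ± 0.07), the neurotensin gene Nts (-1.03 ± 0.06), the prostaglandin transporter Slco2a1 (10.9 ± 2.75 against 22.3 ± 8.12 CPM) and Clca3a1 (-0.98 ± 0.06). Fibroblast markers were lower in Mrc1-detected LEC, with sums of 5.17 to 17.7 CPM against 10.9 to 98.9 CPM, and their part was not tested. Without the library block, none of the splits by Stab1 or Mrc1 gave a called member: adjusted p was 0.485 for Mrc1 between Stab1-detected and Stab1-undetected LEC, and 0.314 for Stab2 between Mrc1-detected and Mrc1-undetected LEC. The splits by Stab1, Stab2 and Mrc1 read the same cells from 3 sides and are not independent of each other.

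Itih5 and Clca3a1, a chloride channel regulator gene, were chosen as a pair because earlier results of these data showed them in different LEC. LEC with an Itih5 and no Clca3a1 UMI (1683, 1086 and 2306 cells) were set against those with a Clca3a1 and no Itih5 UMI (703, 740 and 905 cells), and all 4 genes were called, against 18.2% of 10360 genes (9.14% higher and 9.09% lower on the Itih5 side). Mrc1 had 352, 355 and 350 CPM on the Itih5 side, against 149, 159 and 164 CPM on the Clca3a1 side, a 2.24-fold difference (log2 fold change 1.11 ± 0.06, edgeR adjusted p = 1.17e-12). Stab2 had 27.7, 23.9 and 20.5 CPM, against 9.48, 8.56 and 2.21 CPM (1.86 ± 0.23, adjusted p = 1.08e-06). Neither gene's groups overlapped, and these were the largest differences of the 4 genes within LEC.

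Stab1 had 1007, 931 and 833 CPM on the Itih5 side, against 870, 809 and 655 CPM on the Clca3a1 side (0.21 ± 0.05, edgeR adjusted p = 1.82e-03). Lyve1 ran the other way, with 4428, 3934 and 3721 CPM against 5259, 4565 and 4183 CPM (-0.26 ± 0.04, adjusted p = 1.03e-05), lower in 3 of 3 libraries. Both calls needed the library block (adjusted p = 0.279 for Stab1 and 0.183 for Lyve1 without it). Of 7 tested genes of sinusoidal endothelium, 5 were higher and 1 lower on the Itih5 side (median 0.38, against 0.00 over all genes), among them Maf (0.38 ± 0.04) and Gpr182 (0.19 ± 0.06). Of the genes for ligands and proteases of the 4 receptors, Mmp14 was higher (118 ± 11.3 against 50.6 ± 7.17 CPM), and Tgfbi (15.0 ± 4.38 against 118 ± 14.7 CPM) and Postn (39.8 ± 7.85 against 141 ± 17.1 CPM) were lower. Fibroblast markers were higher on the Itih5 side, with 3 of 3 called and sums of 17.2 to 115 CPM against 4.42 to 16.7 CPM, and their part was not tested.

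**Figure D5:**
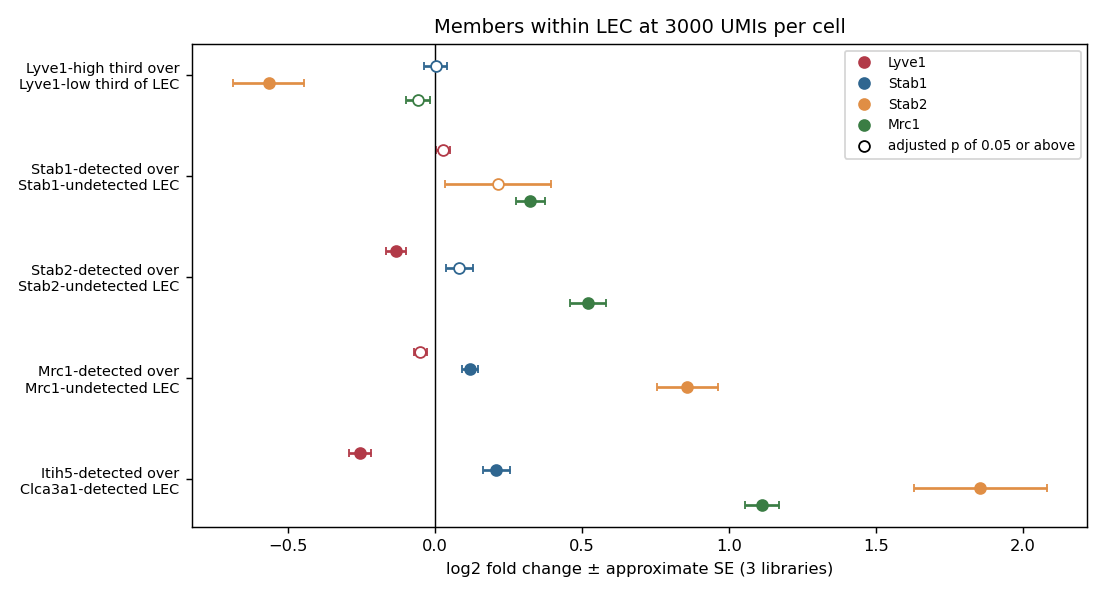
Log2 fold change with its approximate SE (3 libraries) of each gene in the 5 splits of LEC, with filled points for an adjusted p below 0.05 and open points otherwise. Mrc1 and Stab2 lie to the right on the Itih5 side, and Lyve1 lies to the left there and in Stab2-detected LEC.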

How the data were processed

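Single-cell libraries were made with 10x 3′ v3 chemistry from sorted small intestinal cells, per the labels' protocols. The deposited UMI counts were made by the authors with bcl2fastq 2.2 and Cell Ranger 6.1.2 against mm10, per the submitters' processing notes. No source used here gives the annotation or strand setting. Totals were 58857545, 69231794 and 74571090 UMIs over 24541 barcodes. Barcodes under 500 genes or above 15% mitochondrial UMIs were dropped, which left cells for 3 libraries (6359, 6707 and 9468), and classes were set by UMI rules. The 600 barcodes that met several rules were left out. Scrublet called 0, 4 and 1 doublets, which is too few to have worked, so an alternative removed the expected number by score.

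UMIs were summed per library and class and tested with edgeR 4.0.16 in R 4.3.3 (TMM scaling, filterByExpr, quasi-likelihood test, Benjamini-Hochberg threshold 0.05, library as block). The block pairs the sums of 1 library, whose cells were pooled and run together. Approximate SEs are the log2 fold change divided by the square root of F. Within LEC, cells were thinned to 3000 UMIs. Correlations used depth-corrected residuals in Python 3.11.15. Intervals (95%) and the floor of 3 UMIs cover counting error only. Alternatives were DESeq2 1.42.0, other scaling, no filter, no block, each library left out, thinning, stricter or overlapping rules, doublet removal and a higher gene minimum. Some sums were added after seeing the data. These were BEC and macrophages without a Reln, Prox1 or Flt4 UMI, LEC without cycling cells, and macrophages without the barcode highest in Lyve1.

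On simulated data of known answers, LEC against BEC recovered 28.4% of genes with a log2 change of 1 and 64.9% with a log2 change of 2, run on 12315 genes, which bounds what 138 BEC can show. These percentages are of 95 and 97 altered genes that were tested, and 19 unaltered genes were also called between LEC and BEC. The split of LEC by Lyve1 recovered 95% and 100% among 11282 genes, with 6 unaltered genes called. Macrophages against LEC recovered 29.9% and 76.3% among 12787 genes, with 3 unaltered genes called. The members and gene lists were chosen with earlier results of these data known. Named genes were the members, up to 3 called genes per list, comparison and direction with the largest change, 1 sign in all libraries and at least 20 CPM, the same outside the lists, and the 5 highest and 3 lowest correlations, of which some are not reported here. Other genes, such as those that divide macrophages and BEC, were chosen after their values were seen.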

Additional observations from a re-analysis of the deposited data

Results flagged for a closer look

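The 4 genes were also present in barcodes that no comparison used. In the 1385 barcodes that met no class rule, with a median of 4524 UMIs, pooled levels were 2383 CPM for Lyve1, 534.6 CPM for Stab1, 8.135 CPM for Stab2 and 131.6 CPM for Mrc1. These were 56.7%, 65.2%, 50.4% and 47.5% of the LEC levels, and the LEC gene Reln stood at 55.0%.

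The 74 barcodes that met both the LEC and the macrophage rule had a median of 16385 UMIs. Their pooled levels were 1630 CPM for Lyve1, 443.5 CPM for Stab1, 4.467 CPM for Stab2 and 368.2 CPM for Mrc1. They carried Reln (577 CPM) beside the macrophage genes Csf1r (318 CPM) and Cd163 (126 CPM). Both groups were noted because the signals exceed what 3 UMIs would allow.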

How the results depend on the processing

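Of 520 alternative values, 440 kept their side of the threshold or their value, 54 were weaker, 16 stronger and 10 moved, and no called value reversed. The uncalled differences of Stab1 with high Lyve1 (-0.02 to 0.02) and of Lyve1 (-0.0008 to 0.065) and Stab2 (-0.06 to 1.06) with Stab1 changed sign among alternatives. Lyve1 and Stab1 between LEC and BEC, and Mrc1, Stab1 and Lyve1 between macrophages and LEC, stayed called in all alternatives run. The cause of the changes was not tested. With DESeq2, genes called numbered 857 higher in LEC than BEC, 2139 lower in macrophages than LEC, 866 lower in macrophages than BEC, 145 higher and 183 lower with high Lyve1, 30 and 125 with Stab1, 55 and 94 with Stab2, 117 and 283 with Mrc1, and 367 and 407 on the Itih5 side. DESeq2 gave -0.56 for Stab2 with high Lyve1 and -0.12 for Lyve1 with Stab2. Without the replicate block, calls numbered 39 and 116 with high Lyve1, 0 and 2 with Stab1, 16 and 12 with Stab2, 0 and 0 with Mrc1, and 498 and 477 on the Itih5 side. At an unadjusted edgeR p under 0.05 and no block, 252 and 347 genes passed with Stab1 and 401 and 417 with Mrc1. Unblocked log2 fold changes were -0.59 for Stab2 with high Lyve1, 0.32 for Mrc1 with Stab1, -0.13 for Lyve1 with Stab2, 0.12 for Stab1 and 0.86 for Stab2 with Mrc1, and -0.26 for Lyve1 and 0.20 for Stab1 on the Itih5 side, and the block changed no other member's call.

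Thinned to 3000 UMIs, macrophages against LEC gave 1433 higher and 2005 lower genes with Stab2 at -2.75 (adjusted p = 0.0687), and macrophages against BEC gave 626 and 780. Thinned to 5000 UMIs, high Lyve1 gave 1048 and 1149 genes with Mrc1 at -0.13 (adjusted p = 4.69e-03), Stab1 gave Stab2 at 1.06 (adjusted p = 0.025), Stab2 gave 272 higher, Mrc1 gave 929 higher, and Itih5 gave 1560 and 1554. With overlapping barcodes kept, Stab2 in LEC over BEC was 2.43 (adjusted p = 0.0253), 2131 genes were lower in macrophages than LEC, and Lyve1 in macrophages over BEC was 4.47. Stricter rules gave 1.25 for the last, and doublet removal 3.89 for Stab2 in LEC over BEC (adjusted p = 5.81e-03). Genes higher with Stab1 numbered 142 without the filter and 102 in another draw, in which Stab1 with Stab2 was 0.16 (adjusted p = 0.0126). Spearman values were -0.0368 for Lyve1 and Stab2, 0.0198 for Stab1 and Stab2, 0.0796 for Stab1 and Mrc1 and 0.066 for Stab2 and Mrc1. Thinned shares averaged over libraries were 10.4% for Lyve1 in macrophages, 89.1% for Stab1, 4.26% for Stab2 and 49.3% for Mrc1 in LEC, and 20.2% for Stab1 and 0.538% for Mrc1 in BEC.

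Leaving out 1 library at a time gave 467 to 1274 genes higher and 556 to 1140 lower in LEC than BEC, with Stab2 at 1.16 to 3.47, and 2176 to 3362 genes lower in macrophages than LEC, with Stab2 at -2.30 to -1.71. High Lyve1 gave 336 to 600 and 432 to 697 genes, with Stab2 at -0.71 to -0.40. Stab2 gave 93 to 125 and 127 to 226 genes, with Lyve1 at -0.15 to -0.13. Mrc1 gave 299 to 661 and 495 to 847 genes, with Stab1 at 0.10 to 0.13. The 138 BEC, 209 macrophages and low counts of Stab2 limit the precision.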

Other observations

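The 4 genes were also read in LEC of other states, and only some of them differed in each state. The 310 LEC with a UMI of the proliferation gene Mki67 had 3369, 3026 and 2629 CPM of Lyve1, against 4728, 4244 and 3866 CPM in LEC without. They had more Mrc1 (379 ± 31.7 against 270 ± 12.4 CPM) and less Stab1 (696 ± 102 against 855 ± 105 CPM). The 174 LEC with Cxcl9, an interferon-induced chemokine gene, had 3045 ± 361 CPM of Lyve1 against 4267 ± 428 CPM without. Stab1 was alike with and without Cxcl9, at 839 ± 50.7 against 852 ± 106 CPM.

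The 1222 LEC with Nts, the neurotensin gene, had 201 ± 6.24 CPM of Mrc1 against 277 ± 13.2 CPM in LEC without. The 294 LEC with Ptgs2, the inducible cyclooxygenase gene, had 39.6, 23.4 and 21.3 CPM of Stab2 against 20.1, 14.8 and 12.02 CPM, from 27 UMIs. These splits have no test, and the cells of each come from the same libraries.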
